A study of Arabidopsis thaliana with 9 samples.

Results

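HTR10 (AT1G19890) and TET11 (AT1G18520) are genes of the Arabidopsis sperm cell. They were chosen by name, and the probe annotation gave each of them 1 probe set of its own. These are 2 of the 22746 probe sets tested. HTR10 is listed there under its other symbol, MGH3, for male-gamete-specific histone H3. Both were followed over 9 arrays in 3 groups of 3 biological replicates.

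All plants carried LAT52-HF-RPL18, a transgene for a FLAG-tagged ribosomal protein L18 under a pollen promoter, and no group lacked it. Material for the bud group is labelled as stage 11 to 12 buds, while the study's design text speaks of unpollinated styles. For the in vivo group it was self-pollinated flowers labelled stage 14, and for the in vitro group pollen tubes grown in culture. Polysomes were collected from sucrose gradients and pulled down through the FLAG tag, so a signal was meant to read ribosome-bound mRNA and not total mRNA. With no group lacking the transgene, carry-over of other RNA was not tested. Plant age, treatment times and the number of plants per sample are not given in the sources used here.

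Pollen of flowering plants encloses a pair of sperm cells within a large vegetative cell, which grows the tube. The sperm arise when the generative cell divides, and in Arabidopsis this division takes place in the anther before the pollen is shed. HTR10 encodes an H3 histone variant that is incorporated into the chromatin of the male germline. TET11 encodes a tetraspanin, a small protein that crosses the membrane several times, and it is found with its relative TET12 on the sperm cell surface. Both genes are known targets of DUO1, a MYB transcription factor of the male germline. The LAT52 promoter is known for activity in the vegetative cell, which limits the pull-down as a reading of sperm ribosomes. How sperm mRNA entered the pull-down was not tested.

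The arrays differed in quality measures. Spiked hybridisation controls reached a median of 67541 on in vitro replicate 3 but 1436 on in vivo replicate 1, while the other arrays lay between 5175 and 14190. In vitro replicate 3 correlated with its group at 0.859 to 0.866 over probe sets, against 0.933 between the other in vitro arrays. Both arrays stayed in the fits, and values without them are given further on.

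HTR10 had much lower signals in buds and pollinated flowers than in cultured tubes. Its bud signals were 365, 293 and 128 on replicates 1 to 3. In vivo they were 216, 197 and 320, which lay within the range of the bud arrays. In vitro they were 3443, 4448 and 5580, and every in vitro array was brighter than each of the other 6. The means were 262 ± 121 (SD, n = 3) on bud arrays, 245 ± 66.2 in vivo and 4491 ± 1069 in cultured tubes. The signals are on a linear scale, and the authors had scaled each array to one common level.

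TET11 had another order. Its bud signals were 528, 738 and 504. In vivo it was dim on all arrays, at 43.6, 48.8 and 25.9. In vitro it was again bright, at 900, 1083 and 583. The in vivo arrays did not overlap with either other group, whereas bud and in vitro arrays did overlap. The means were 590 ± 129 (SD, n = 3) on bud arrays, 39.4 ± 12.0 in vivo and 855 ± 253 in cultured tubes.

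**Figure D1:**
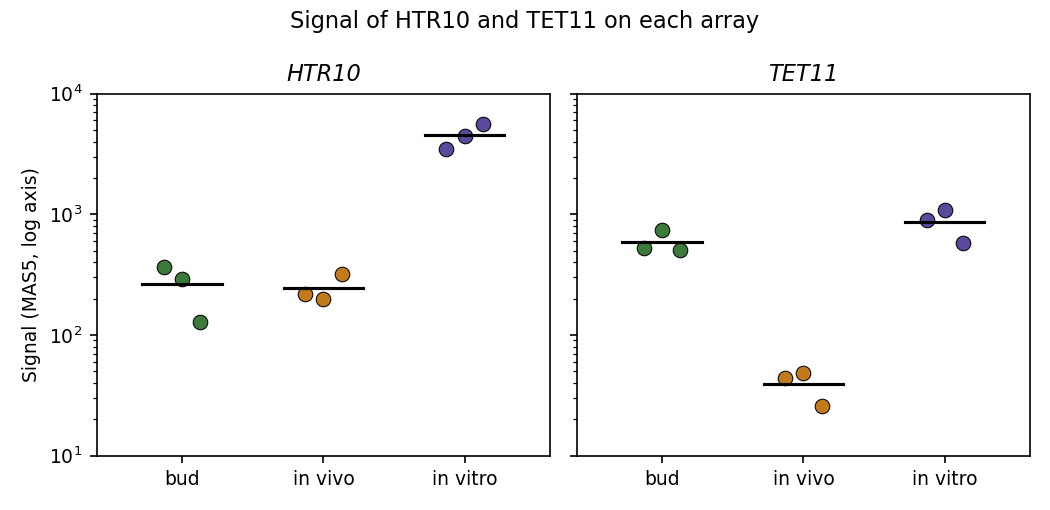
Signal of HTR10 (left) and TET11 (right) on each array, on a log axis; points are the 3 replicates of a group and lines are their means. HTR10 stands apart in vitro, with 3443 to 5580, and TET11 stands apart in vivo, with 25.9 to 48.8.

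Ranked among all tested probe sets of the same array, HTR10 stood at percentile 42.8 to 66.9 in bud, against 52.7 to 62.0 in vivo and against 94.3 to 96.1 in vitro. TET11 stood at 72.2 to 79.5 in bud, against 15.6 to 29.0 in vivo and against 84.9 to 89.0 in vitro. By rank, unlike by signal, the TET11 values of bud and in vitro arrays did not overlap. A rank shows the place of a gene on its array, and its order need not follow that of the signals. The tested probe sets had array medians of 175 to 196 in bud, against 174 to 187 in vivo and against 68.6 to 112 in vitro.

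Between buds and pollinated flowers only TET11 passed the test, and the difference between the members is tested further on. TET11 fell, its log2 fold being -3.45 ± 0.35 (SE, adjusted p = 0.000189, limma). Whether its in vivo signals were above background was not tested, so no ratio of its means is given. Of all tested probe sets, 4.02% were called in this comparison, 2.15% higher and 1.87% lower, and the arrays of both groups did not overlap in 22.0%. HTR10 was not called (log2 fold -0.0083 ± 0.41 SE, limma adjusted p = 0.999). The 95% interval of that HTR10 difference ran from -0.92 to 0.90, a span that holds changes in either direction. The fall of TET11 was called in all 18 alternative settings, with log2 folds of -5.22 to -2.65. Floral stage differs along with pollination between these groups, and stage and pollination cannot be told apart.

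Cultured tubes were next set against buds. HTR10 rose by 4.10 ± 0.41 on the log2 scale (SE, adjusted p = 5.43e-06, limma), a mean signal 17.1 times higher. In this comparison 60.9% of all probe sets were called, 20.4% higher and 40.5% lower, and the arrays did not overlap in 63.8%, so a call alone sets HTR10 little apart. TET11 was not called, at 0.50 ± 0.35 on the log2 scale (SE, limma adjusted p = 0.244), a 95% interval running from -0.28 to 1.28. That depended on scaling: TET11 passed as higher at 1.26 (adjusted p = 0.0112) with quantile normalization and at 1.56 (adjusted p = 0.00641) with equal array medians. Over all probe sets the median was -0.42 in this comparison, against 0.22 and 0.63 under those settings. Relative to these medians HTR10 was higher in each case, with log2 folds of 4.11 (quantile) and 5.16 (equal medians).

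Against pollinated flowers, cultured tubes had higher scaled signals of both. Both genes were higher in vitro: HTR10 at 4.11 ± 0.41 (SE, adjusted p = 6.22e-06) and TET11 at 3.95 ± 0.35 (SE, adjusted p = 2.7e-06), both by limma. The mean signal of HTR10 was 18.3 times higher. Of all tested probe sets 59.3% were called, 20.0% higher and 39.4% lower in vitro, and the arrays of both groups did not overlap in 63.5%. This comparison shares its in vitro arrays with the one before and its in vivo arrays with the first.

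In these bulk samples, fewer sperm cells and less mRNA per sperm cell cannot be told apart. Nor can they be told apart from a change in the rest of the sample, since all arrays were scaled to one trimmed mean. The labels call the tissue pollen grains and tubes in bud, and pollen tube in the other groups. Of 25 genes listed for the vegetative cell and tube, 12 were measured, and their summed signal was 3108 to 6468 in bud, against 18275 to 41397 in vivo and against 551770 to 853967 in vitro. The 5 measured of 10 photosynthesis genes, which mark green tissue, summed to 35598 to 63311, 33443 to 50647 and 351 to 641. The 5 measured of 17 tapetum genes, which mark the nurse tissue of the anther, summed to 14612 to 23313, 521 to 1063 and 113 to 876. Between in vivo and bud, A9, SHT, AMS and ATA27 of this list were called lower. EMS1 was not called (log2 fold -0.09, adjusted p = 0.994, limma), with mean signals of 718 in bud and 665 in vivo, so it made up much of the in vivo sum. EC1.2 and EC1.5, which mark the egg cell, were higher in vivo than in bud by 2.13 and 2.52 (adjusted p = 0.00868 and 0.0136, limma), while SPT (-0.90), INO (0.15) and FER (0.05) of the same list were not called. Both calls were lost with offset 1, and 1 of them with quantile normalization and with each of 5 single arrays left out (bud replicate 1, 2 or 3, in vivo replicate 1 or 2). The part that these other cells have in the TET11 and HTR10 results was not tested.

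Within arrays, each gene was also set against the mean log2 value of the 12 pollen genes. HTR10 stood at -0.12 ± 0.31 (SD, n = 3) on bud arrays, -1.90 ± 0.37 in vivo and -2.78 ± 0.30 in cultured tubes. TET11 stood at 1.09 ± 0.41 in bud, -4.13 ± 1.04 in vivo and -5.16 ± 0.50 in cultured tubes. On this scale both genes were highest in bud, and no bud array overlapped with an array of another group. The pollen genes themselves were higher by a mean log2 of 1.77 in vivo and 6.76 in vitro than in bud, more than either member.

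**Figure D2:**
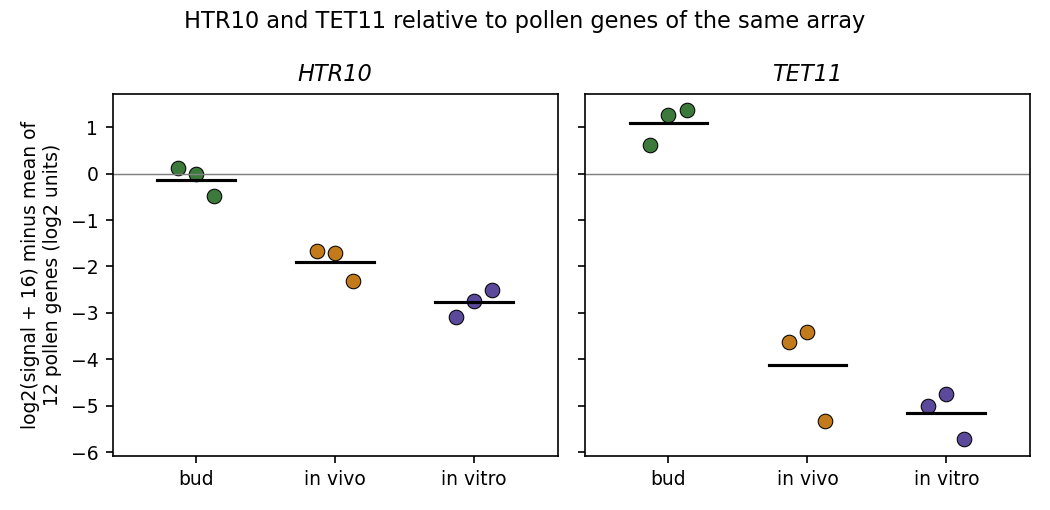
HTR10 (left) and TET11 (right) as log2(signal + 16) minus the mean of 12 pollen genes of the same array; points are replicates and lines are group means. Both genes are highest in bud on this scale, at means of -0.12 and 1.09.

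Fitted on that scale, HTR10 fell from bud to in vitro by -2.65 ± 0.60 in log2 units (SE, adjusted p = 2.29e-05, limma), the opposite direction to its rise in signal. From bud to in vivo HTR10 fell, at -1.78 ± 0.60 (SE, adjusted p = 0.00775). TET11 had folds of -5.22 from bud to in vivo and -6.26 from bud to in vitro. Between in vitro and in vivo neither was called, at -0.88 (adjusted p = 0.150) for HTR10 and -1.03 (adjusted p = 0.0954) for TET11. Most of the array moves on this scale, with 18946 of 22746 probe sets called between in vivo and bud, and 22325 called lower in vitro than in bud. Over all probe sets the median log2 fold was -1.78 in vivo against bud, the same as for HTR10. It was -7.18 in vitro against bud and -5.35 in vitro against in vivo. The scale therefore describes the members against pollen genes and does not single them out.

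The difference between the members was tested on the log2 ratio of HTR10 to TET11 within each array, which no scaling factor of an array can change apart from the offset. The ratio was -0.51, -1.29 and -1.85 in bud, 1.96, 1.72 and 3.01 in vivo, and 1.92, 2.02 and 3.22 in vitro. All bud arrays lay below all others, while in vivo and in vitro arrays overlapped. The change from bud was 3.45 in vivo and 3.60 in vitro, each with p = 0.1 in a two-sided exact permutation test, the smallest p that 3 against 3 arrays allow. Between in vitro and in vivo the ratio differed by 0.16 (exact permutation p = 0.6). This permutation test cannot reach 0.05 with 3 against 3 arrays, and no other test of the ratio was run. Probe sets differ in brightness, so the ratio says nothing on which mRNA was more abundant.

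Few other sperm genes could be read. Of 24 genes listed for sperm and the generative cell, 4 had a named probe set of their own, the members included. TET12, the partner of TET11 on the sperm surface, had signals of 21.6 to 36.0 in bud and 3.72 to 33.7 in vivo. In vitro it was at 265, 155 and 20.0 on replicates 1 to 3, so replicate 3 was no brighter than bud. TET12 was higher in vitro than in vivo by 2.16 (adjusted p = 0.0149, limma), a call that was lost when in vivo replicate 1 (1.93), in vivo replicate 3 (1.94), in vitro replicate 1 (1.54) or in vitro replicate 2 (1.90) was left out. FBL17, an F-box protein needed for generative cell division, was lower in vitro than in bud, at a log2 fold of -2.18 (adjusted p = 0.00718), a call lost under quantile normalization and equal medians. Its in vitro signals were uneven, at 11.4, 19.4 and 152 from lowest to highest, against 167 to 307 in bud. Between in vivo and bud the list as a whole had 0 higher and 1 lower, TET11 itself, where 4.02% of all probe sets were called. In vitro against bud it had 1 higher and 1 lower, where 60.9% were called. In vitro against in vivo it had 3 higher and 1 lower, where 59.3% were called. The last count was 2 higher and 0 lower without in vivo replicate 3, in vitro replicate 1 or in vitro replicate 2, and the FBL17 call in it was lost in 5 of 17 alternatives. With quantile normalization or equal medians, both in vitro comparisons had 3 higher and 0 lower. With the members included, the list had median log2 folds of -0.49, 0.96 and 3.06, beside -0.02, -0.42 and -0.36 over all probe sets. For TET12 and FBL17 alone the medians were -0.49, -0.38 and 0.12, so the list adds little beyond the members.

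HTR10 belongs to a family in which other members package the chromatin of dividing or resting cells. Of 14 H3 genes, 5 had a probe set of their own. None of these 5 was called between in vivo and bud, by limma at an adjusted p under 0.05. None of the 5 had an unadjusted p under 0.05 either, where 11.7% of all probe sets did. In vitro against bud, HTR14 rose beside HTR10, from signals of 0.497, 15.8 and 31.0 in bud, given from lowest to highest, to 229, 372 and 415 in vitro (log2 fold 3.57 ± 0.49 SE, adjusted p = 6.54e-05). HTR12, the centromeric H3, fell by 2.45 (adjusted p = 8.41e-05), and HTR6 and HTR15 were not called, with means under 50 in every group. A probe set shared by HTR14 and HTR6 rose from a mean of 6.05 in bud to 167 in vitro (log2 fold 2.74, adjusted p = 0.00103), and which of them it reads cannot be told apart. HTR14 and HTR10 shared the order of bud and in vivo low and in vitro high.

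The remaining H3 genes share probe sets, so no single gene is named for them. RefSeq lists 5 of these genes as H3.1, the form laid down in DNA replication, and they share 5 probe sets. All 5 probe sets were lower in vitro than in bud, at log2 folds of -6.06 to -3.83, the reverse of HTR10. Of all probe sets, 40.5% were called lower in this comparison. Annotated to the same 5 genes, the H3.1 probe sets cannot be counted as 5 separate readings, and which gene each one reads cannot be told. Their signals in bud reached means of 1278 to 5551 and in vitro 22.9 to 286. The 3 probe sets of the genes listed as H3.3, the form used outside replication, disagreed: 1 was higher in vitro than in bud at 1.34, 1 was lower at -4.55 and 1 was not called at 0.40. The probe set of HTR10 is annotated to that gene alone, but cross-hybridisation among H3 mRNAs was not tested.

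H2B, the partner of H2A in the nucleosome, also had members on both sides. Of 10 H2B genes with their own probe set, 5 rose and 5 fell in vitro against bud, where 20.4% of all probe sets rose and 40.5% fell. HTB10 rose from 924 ± 520 (SD, n = 3) to 28730 ± 9537, HTB7 from 319 ± 128 to 3987 ± 202 and HTB8 from 57.1 ± 27.4 to 1098 ± 63.2. HTB1 fell from 2881 ± 605 to 82.7 ± 60.8 and HTB11 from 2500 ± 280 to 58.1 ± 37.6. HTB5 and HTB6 rose by 1.65 and 1.68, and HTB2, HTB3 and HTB4 fell by 4.56, 3.21 and 3.05. The rise of HTR10, at 4.10, lay within the range of the 5 H2B genes that rose. None of the 10 was called between in vivo and bud by limma (adjusted p = 0.358 for HTB6 and 0.356 for HTB10, the only pair of them with an unadjusted p under 0.05). The H2A genes on the list had no probe set named here, and the 5 shared H4 probe sets fell in vitro against bud, by -5.23 to -1.23.

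**Figure D3:**
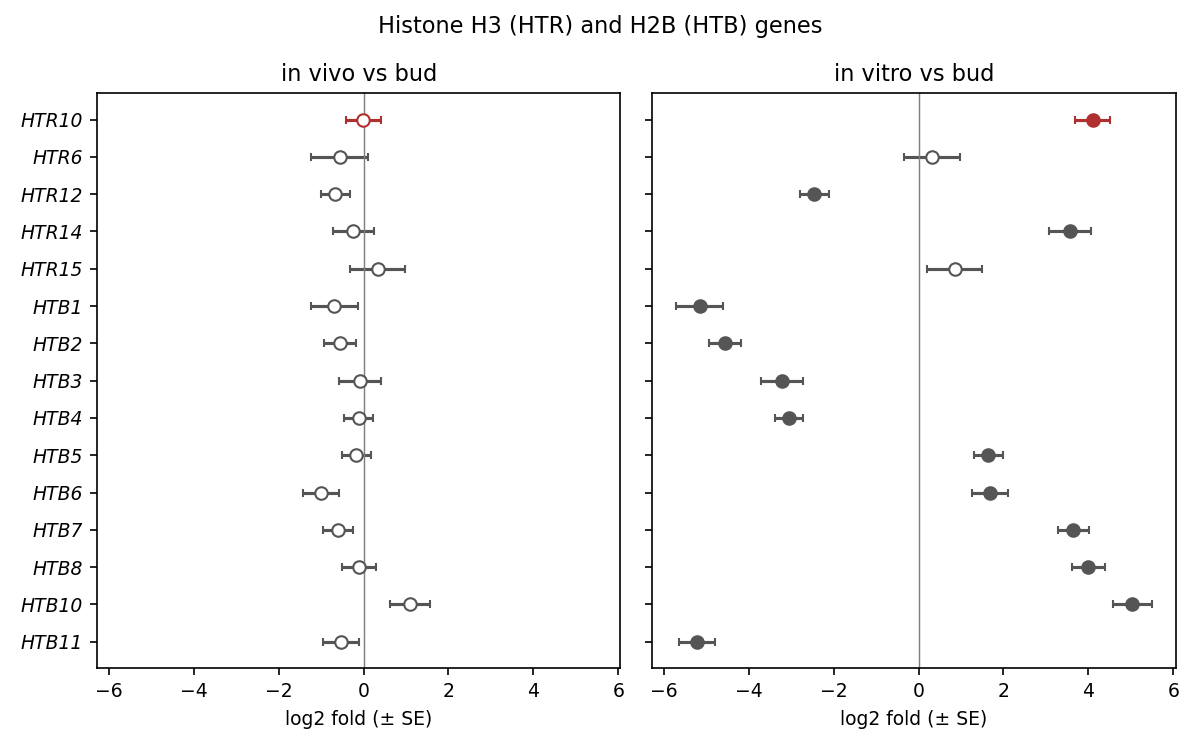
Log2 folds with SE for the H3 genes (HTR) and H2B genes (HTB) that have their own probe set, in vivo against bud (left) and in vitro against bud (right); filled points were called and HTR10 is red. No gene was called in vivo, and in vitro HTR10 at 4.10 sits beside HTR14 and the H2B genes that rose.

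AUR1, AUR2 and AUR3, mitotic kinases, and PRL, a replication factor, were the 4 measured of 17 listed genes, and all 4 rose in vitro against bud, as did 20.4% of all probe sets. Their summed signal was 2412 to 3475 in bud, against 2638 to 3682 in vivo and against 27396 to 39225 in vitro. As for HTR10, none was called between in vivo and bud. Their part in the histone result was not tested.

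Tetraspanins were called in both directions in pollinated flowers. Of 17 tetraspanin genes, 15 were measured, and 2 rose and 2 fell between in vivo and bud, while 4.02% of all probe sets were called. TET15 fell with TET11, from 340, 399 and 554 in bud, given from lowest to highest, to 48.6, 49.9 and 58.7 in vivo (log2 fold -2.68 ± 0.35 SE, adjusted p = 0.00108). TET13 and TET6 rose, by 2.92 (adjusted p = 0.000756) and 1.33 (adjusted p = 0.0467), and the TET6 call was lost in 12 of 16 alternatives. The median over all 15 was -0.10, beside -0.02 over all probe sets.

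In cultured tubes TET11 and TET15 parted. TET15 was at 3.64 to 21.8 in vitro, lower than in bud by 3.94 on the log2 scale (adjusted p = 1.99e-06, limma), whereas TET11 was at 583 to 1083. TET13 reached 20177, 21037 and 24131 in vitro, given from lowest to highest, from 26.0 to 83.1 in bud, and was higher in each step. TET16, which directly precedes TET11 in the RefSeq gene order, had 786, 850 and 1271 in vitro. It was at 1.24 to 45.6 in bud and 3.56 to 26.6 in vivo. By signal the neighbours thus had different patterns: TET11 was dim only in vivo, and TET16 was dim in both bud and in vivo. The overlap of TET11 between bud and in vitro arrays held by signal but not by rank. TET16 rose in vitro against bud by 4.89 ± 0.49 (SE, adjusted p = 5.07e-06, limma), and was not called in vivo at -0.31 (adjusted p = 0.975).

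Several tetraspanins were lower in vitro, where TET11 was bright. TET8, which marks extracellular vesicles, averaged 6607 ± 299 (SD, n = 3) on bud arrays, 6872 ± 783 in vivo and 2190 ± 389 in cultured tubes. TET3 had 987 ± 168, 1765 ± 480 and 131 ± 96.2. TET8 and TET4 lost their calls as lower with equal medians. Against in vivo, 7 tetraspanins were lower in vitro and 5 were higher, the latter being TET11, TET12, TET13, TET14 and TET16, while 59.3% of all probe sets were called. With quantile normalization 6 were lower and 5 higher, and with equal medians 4 were lower and 6 higher. Against bud 3 were higher and 6 lower, where 60.9% of all probe sets were called. These counts were 5 and 6 with quantile normalization, 6 and 4 with equal medians, and 2 and 7 with offset 1. The call of TET14 as higher than in bud was lost in 11 of 17 alternatives. TET7 was not called in any comparison, with mean signals of 1359 for bud, 1066 for in vivo and 1307 for in vitro.

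**Figure D4:**
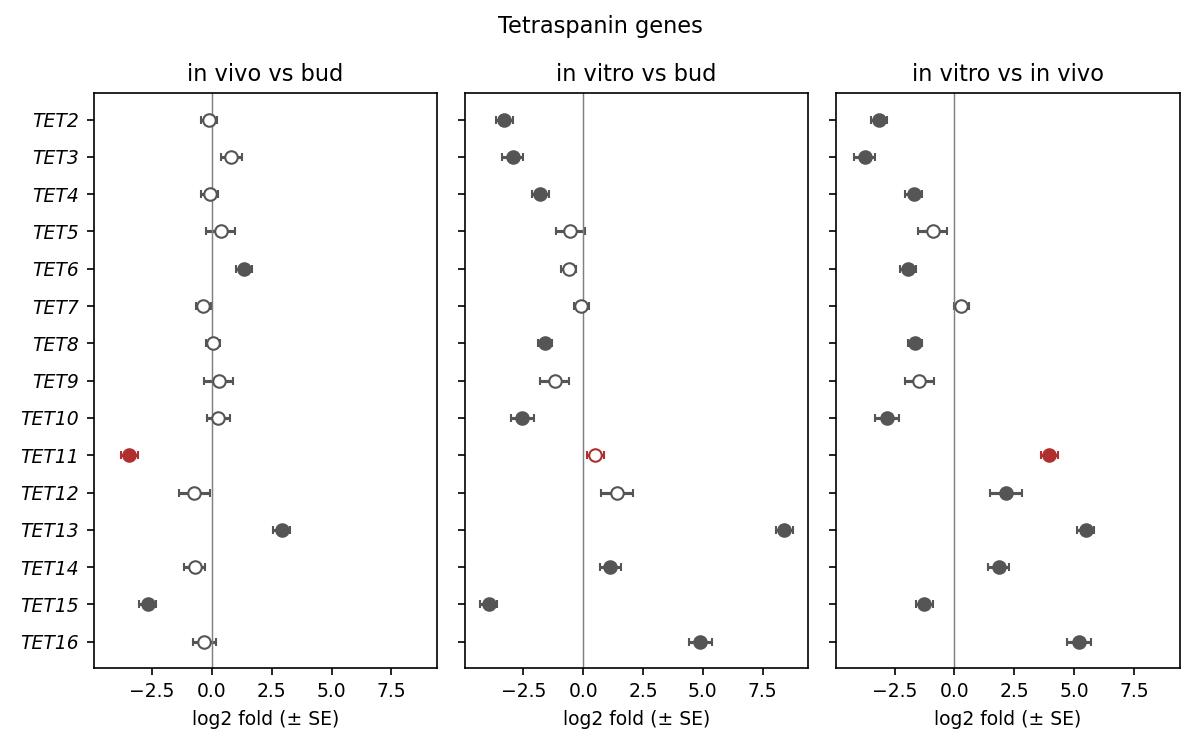
Log2 folds with SE of 15 tetraspanin genes in the 3 comparisons; filled points were called and TET11 is red. TET11 falls in vivo against bud beside TET15, and is higher in vitro than in vivo beside TET12, TET13, TET14 and TET16.

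Likeness in pattern was described by Pearson's r of the log2 values over the 9 arrays, among 6044 other probe sets with 1 named gene and a mean signal above the median. The 9 points form 3 groups that share each array's scaling, so r mainly reflects the 3 group means, and no p is given. HTR10 was most like AT3G12640 (r = 0.997), AT5G08240 (0.996), AT4G27130 (0.996), TET16 (0.995) and AT3G08990 (0.994). Chosen for likeness, they were by construction lower in bud and in vivo than in vitro. AT5G08240, for example, had means of 80.5, 90.2 and 4783. Among these candidates 638 probe sets were above r = 0.95. The filter on the mean over all arrays admits genes dim in bud and in vivo if they are bright in vitro. The count thus depends on that filter, whose effect was not tested.

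TET11 had fewer close matches among candidates chosen by the same filter, with 6 above r = 0.95. Its nearest were AT3G42850 (r = 0.980), AT4G20460 (0.965), AT4G36600 (0.963), VEX1 (0.960) and AT3G25160 (0.959). VEX1, a sugar carrier gene named for its expression in the vegetative cell, averaged 531 ± 199 (SD, n = 3) on bud arrays, 88.6 ± 23.4 in vivo and 859 ± 409 in cultured tubes. VEX1 fell between bud and in vivo by 2.35 on the log2 scale (adjusted p = 0.0068, limma). Of the 12 measured pollen genes it alone was called lower in vivo, while 6 were called higher. VEX1 is shown here because it resembles TET11, so its fall restates that choice. HTR10 and TET11 correlated at r = 0.57, and HTR10 ranked 637 among the genes most like TET11.

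**Figure D5:**
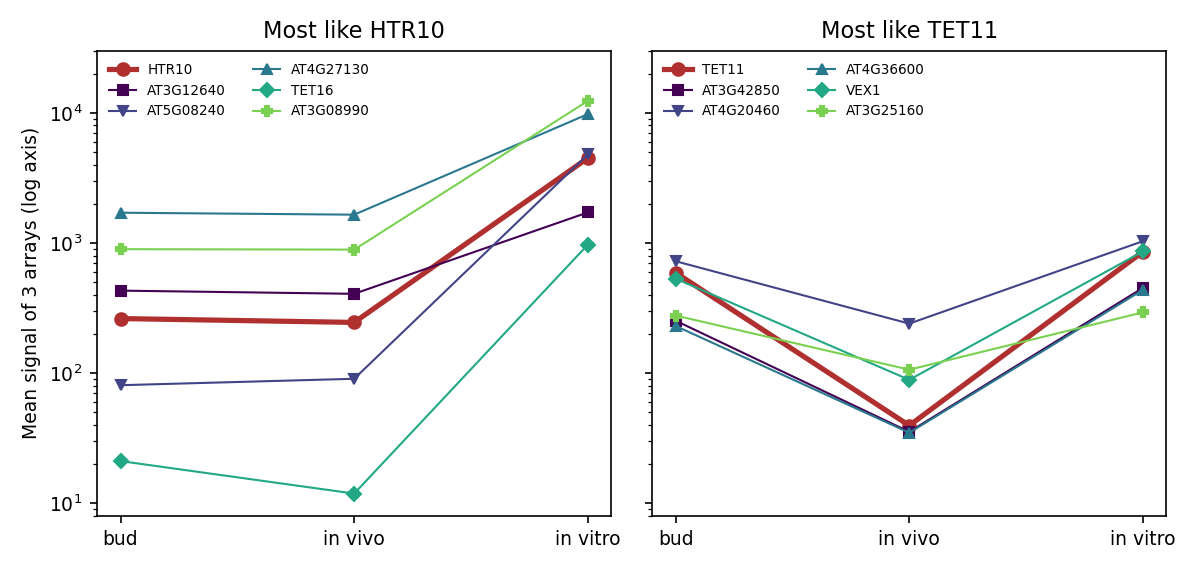
Mean signals (3 arrays, log axis) in bud, in vivo and in vitro of HTR10 (left) and TET11 (right), in red, with the 5 genes most like each by Pearson's r over 9 arrays. The HTR10 set is flat from bud to in vivo and bright in vitro, and the TET11 set dips in vivo.

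Without in vitro replicate 3, HTR10 rose in vitro against bud by 3.93 (adjusted p = 1.46e-05), and TET11 had 0.75 (adjusted p = 0.0737), still not called. Without in vivo replicate 1, TET11 fell in vivo against bud by 3.52 (adjusted p = 0.00185). All of these were fitted with limma.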

How the data were processed

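The deposited values are intensity values, 1 signal per probe set and array, which the authors made with MAS5, per the submitters' processing notes (version not given in the sources used here). Each array had a 2% trimmed mean of 500.04 to 500.13. Gene names came from the platform annotation, updated through RefSeq identifiers; 13513 probe sets had 1 gene and 503 had several. No sequences or coordinates are printed.

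Values were transformed as log2(value + 16), 64 control probe sets were left out, and limma 3.58.1 (R 4.3.3) fitted group means over all 9 arrays. P-values are two-sided, adjusted by the Benjamini-Hochberg method over 22746 probe sets, and called under 0.05. Folds are on this offset scale, which understates changes of dim genes. The members, gene lists and tests were chosen with earlier results of these data known. Named genes are the members, the listed sperm, histone and tetraspanin genes with their own probe set, some cell type markers, and 5 most similar genes per member. The replicate numbers did not pair arrays (correlations of same-numbered deviations -0.046 to 0.073). Alternatives were the offset, scaling, a filter under a mean of 50, the arrays fitted, a replicate block, array weights and each array left out. The number of arrays limits precision.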

Additional observations from a re-analysis of the deposited data

How the results depend on the processing

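Of 18 alternatives, each applied to HTR10 and TET11, the fall of TET11 in vivo against bud was called in all. HTR10 in vitro against bud and against in vivo, and TET11 in vitro against in vivo, were called higher in 17 and turned around only relative to pollen genes, where the first was called lower (-2.65) and the others were not called (-0.88 and -1.03). TET11 in vitro against bud was called at 1.26 (quantile), 1.56 (equal medians) and -6.26 (relative to pollen genes). The uncalled HTR10 difference in vivo against bud changed sign with quantile normalization (0.0021) and equal medians (0.024). Relative to pollen genes it was called at -1.78, where the median over all probe sets was also -1.78. Leaving out single arrays moved it from -0.42 to 0.28. The same gave HTR10 3.69 to 4.39 in vitro against bud and 3.94 to 4.31 against in vivo, and TET11 -3.58 to -3.26, 0.31 to 0.75 and 3.76 to 4.20 in the 3 comparisons. The ratio of HTR10 to TET11 in vitro against in vivo changed sign with offset 1 (-0.21) and quantile normalization (-0.40), and ran from -0.26 to 0.55 with single arrays left out. With the replicate block, TET11 fell in vivo by 3.45 (adjusted p = 0.000361), and the block changed no call of either member.

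Probe sets called in vivo against bud numbered 915, and 579 with offset 1, 1378 with 6 arrays, 2183 with array weights, 18946 relative to pollen genes and 541 to 1292 with single arrays left out. The called counts in vitro were 13859 against bud and 13495 against in vivo, and 22398 and 22050 relative to pollen genes. Of those called in vitro against bud 33.5% were higher, and 52.3% with quantile normalization and 60.7% with equal medians; against in vivo these were 33.7%, 53.4% and 60.8%. The cause of these shifts was not tested.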
